A study of Mus musculus with 16 samples.

Results

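The Wnt ligands are secreted lipid-modified glycoproteins, and 10 of their genes were followed here: Wnt1, Wnt2, Wnt2b, Wnt3, Wnt3a, Wnt5a, Wnt6, Wnt7b, Wnt10a and Wnt10b. They were picked by name out of 22232 protein-coding genes, with earlier results of these data known, and all 10 were found in the annotation. For each gene, the peaks of every list were collected within 2500 bp of a protein-coding start site (the promoter window, with the peak centre inside it) and over the gene body. For each of them the number of peaks, the covered length and the fold enrichment over background given by the peak caller were read.

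The marks were mapped by ChIP-seq, the sequencing of DNA recovered by chromatin immunoprecipitation, in mouse embryonic stem cells (ES) of the 46C line, which carries a Sox1-GFP reporter of neural fate, and in neural precursor cells (NPCs) derived from it in suspension culture, collected at day 6. Peak lists for the histone marks H2AK119ub1 and H3K27me3 came from wild type cells and from cells labelled PCGF5-depleted with the genotype shPCGF5, giving 8 histone lists. The other 2 lists were Flag-PCGF5 in ES and in NPCs, from cells labelled wild type, which by the methods of the study carried a 3×Flag tag at the Pcgf5 locus. Each group was 1 library, so no difference below has a replicate or a test, and the 6 input libraries were not analysed here. PCGF5-depleted lines were obtained with lentiviral short hairpin RNA and were grown from picked clonal clusters. The study reported that loss of PCGF5 blocks neural differentiation, with a smaller share of reporter-positive cells in PCGF5-deficient cultures. The NPC libraries of the genotypes may therefore hold different mixtures of cells. Genotype and differentiation state cannot be told apart in any NPC comparison below, and the part of each was not tested. All ES cells were grown on feeder fibroblasts with LIF, PD0325901 and CHIR99021, an inhibitor of the kinase GSK3 that itself turns on Wnt signalling in the receiving cell, whereas the differentiation medium listed none of these, so stage and medium cannot be told apart. The depth of the libraries is unknown, because the lists hold peaks and no read totals.

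Wnt proteins bind Frizzled receptors together with LRP5 or LRP6. In the canonical branch this stops the destruction of β-catenin, which then activates genes with TCF and LEF factors, while Wnt5a is best known for signalling that does not need β-catenin. Wnt ligand genes are developmental genes with narrow expression, and genes of this kind are classic targets of the Polycomb system, in which Polycomb repressive complex 1 (PRC1) places H2AK119ub1 and Polycomb repressive complex 2 (PRC2) places H3K27me3. PCGF5 is a subunit of one variant form of PRC1.

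The marked stretch that the most histone lists had in common was located for each gene, because it shows where on the promoter the marks sat. Sequences were read from NCBIM37 (mm9), are written 5′ to 3′ on the strand of the gene, and have CG dinucleotides in capitals. CG reads the same on both strands. Parts of exons outside the coding sequence were left out.
Wnt1, coding sequence, chr15:98620620-98620681, plus strand, in 7 of 8 lists: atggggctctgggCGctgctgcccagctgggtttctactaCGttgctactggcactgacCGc
Wnt2b, coding sequence, chr3:104764250-104764390, minus strand, in 7 of 8 lists: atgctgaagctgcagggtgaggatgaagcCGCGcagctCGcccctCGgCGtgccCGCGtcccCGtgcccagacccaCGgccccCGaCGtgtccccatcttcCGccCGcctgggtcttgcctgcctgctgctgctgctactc
Wnt3a, intron, chr11:59102525-59102642, minus strand, in 7 of 8 lists: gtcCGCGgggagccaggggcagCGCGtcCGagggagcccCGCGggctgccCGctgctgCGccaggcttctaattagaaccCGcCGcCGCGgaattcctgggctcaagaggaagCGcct
Wnt3, upstream, chr11:103634840-103634909, plus strand, in 6 of 8 lists: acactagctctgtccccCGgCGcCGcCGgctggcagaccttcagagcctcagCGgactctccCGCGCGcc
Wnt10b, intron, chr15:98606872-98606912, minus strand, in 6 of 8 lists: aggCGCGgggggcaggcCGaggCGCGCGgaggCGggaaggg
Wnt6, upstream, chr1:74816771-74816815, plus strand, in 6 of 8 lists: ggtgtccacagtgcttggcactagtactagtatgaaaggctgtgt
Wnt2, intron, chr6:17979811-17980061, minus strand, in 3 of 8 lists: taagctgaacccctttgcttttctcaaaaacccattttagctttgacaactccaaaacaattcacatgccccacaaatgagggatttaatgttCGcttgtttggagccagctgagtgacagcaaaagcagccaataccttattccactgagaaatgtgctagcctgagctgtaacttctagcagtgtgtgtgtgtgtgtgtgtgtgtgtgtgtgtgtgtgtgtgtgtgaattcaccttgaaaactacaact

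These stretches differed in base composition. The shown part for Wnt2b held 13 CG in 141 bp and that for Wnt3a held 14 in 118 bp, whereas the Wnt6 stretch held 0 in 45 bp and the Wnt2 stretch, which holds a long gt repeat, held 1 in 251 bp. The list missing from the Wnt2b stretch was H2AK119ub1 of wild type NPCs, and both NPC lists of H2AK119ub1 were missing from the Wnt3 and Wnt10b stretches. For Wnt7b, a stretch of 60 bp at chr15:85408046-85408105 was covered in all 8 histone lists, and it lay in the non-coding part of an exon. The same was true of the 169 bp of Wnt5a (chr14:29318416-29318584, in 5 lists) and of most of the 178 bp of Wnt10a (chr1:74838592-74838769, in 7 lists).

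Both marks were found at the Wnt promoters at both stages and in both genotypes. H3K27me3 marked 10 of 10 promoters in wild type ES (13.4% of all genes), 9 of 10 in PCGF5-depleted ES (12.9%), and 10 of 10 in wild type NPCs (15.7%) and in PCGF5-depleted NPCs (15.4%). The gene without a peak in PCGF5-depleted ES was Wnt2. H2AK119ub1 marked 8 of 10 in wild type ES (6.69% of all genes), 9 of 10 in PCGF5-depleted ES (5.96%), 8 of 10 in wild type NPCs (4.98%) and 8 of 10 in PCGF5-depleted NPCs (4.17%). A peak in all 8 histone lists was present at 6 of 10, namely Wnt1, Wnt3a, Wnt5a, Wnt7b, Wnt10a and Wnt10b, against 1.42% of all genes.

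Gene bodies gave a similar picture. H3K27me3 touched 10 of 10 gene bodies in wild type ES (15.9% of all genes), 9 of 10 in PCGF5-depleted ES (14.7%), 10 of 10 in wild type NPCs (16.2%) and 10 of 10 in PCGF5-depleted NPCs (15.7%), and again Wnt2 was the exception. H2AK119ub1 touched 9 of 10 in wild type ES (9.95%), 9 of 10 in PCGF5-depleted ES (8.86%), 8 of 10 in wild type NPCs (5.29%) and 9 of 10 in PCGF5-depleted NPCs (5.34%).

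The identity of the cells could be checked only through these repressive marks. The ES genes Pou5f1 and Nanog had no promoter peak in any list. H3K27me3 was listed at Zfp42 in wild type NPCs alone, at Klf4 in both NPC lists and neither ES list, and at Esrrb in all 4. Of 4 neural genes with a start site in the annotation, Pax6 and Pou3f2 had H3K27me3 peaks in all 4 lists, Nes in all but wild type ES, and Cdh2 in wild type ES and PCGF5-depleted NPCs, so 4 of 4 were marked in PCGF5-depleted NPCs and 3 of 4 in each other list. Sox1 had no entry among the protein-coding names used. H2AK119ub1 marked 2 of the 4 neural genes in wild type ES, 3 in PCGF5-depleted ES, Pax6 alone in wild type NPCs and 4 in PCGF5-depleted NPCs. It was listed at Esrrb in all but PCGF5-depleted ES and at Klf4 in wild type NPCs alone. Of 7 marker genes of other germ layers, H3K27me3 marked 7, 6, 7 and 7 in the same order of lists. H2AK119ub1 marked 4, 6, 6 and 5 of them. PCGF5 itself is not measured by the histone lists.

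**Figure D1:**
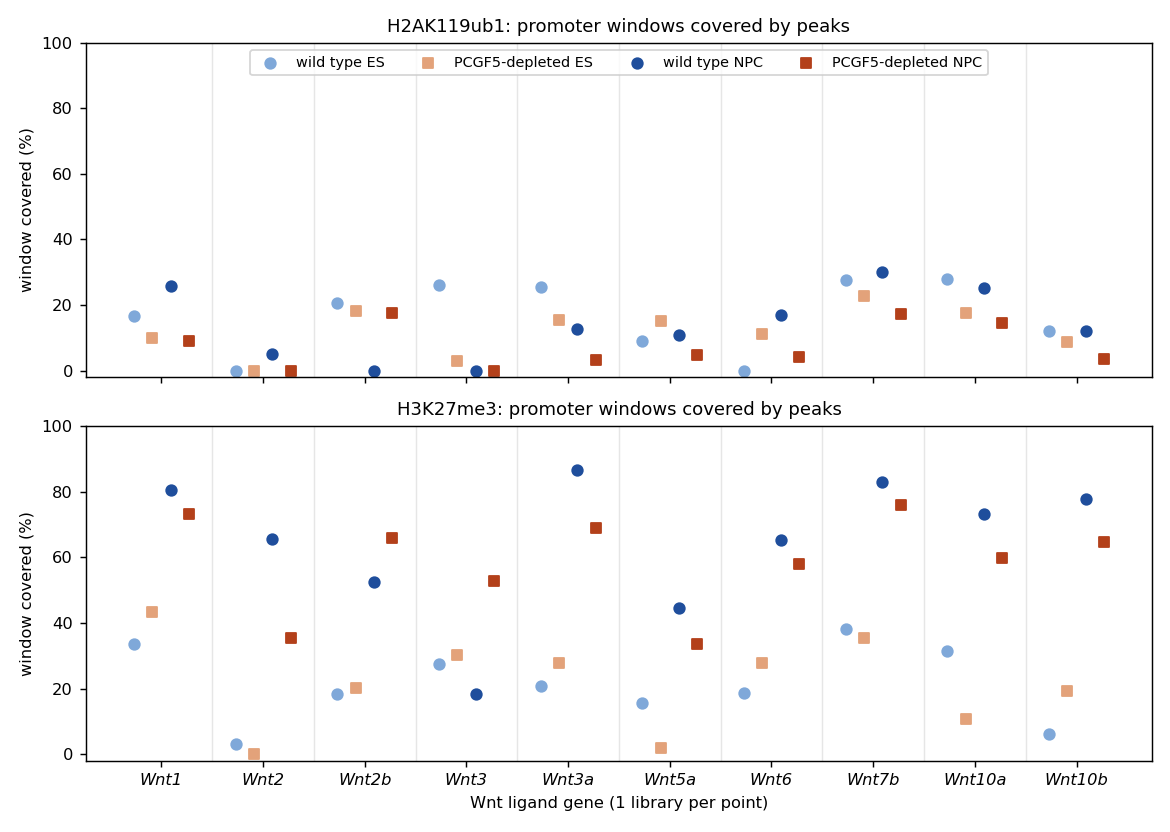
Percent of the promoter window covered by peaks (vertical axis) for each of the 10 Wnt ligand genes (horizontal axis), with H2AK119ub1 above and H3K27me3 below; each point is 1 library, circles are wild type, squares PCGF5-depleted, pale colours ES and dark colours NPCs. H3K27me3 in wild type NPCs lies between 18.4% (Wnt3) and 86.6% (Wnt3a), and H2AK119ub1 stays at or under 30.2% in every list.

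In wild type cells, H3K27me3 peaks covered more of the promoters in NPCs than in ES. By Western blot, the study reported a gradual fall of H3K27me3 protein during differentiation in both genotypes. Covered length does not measure the total amount of the mark. The covered length over the 10 windows was 13722 bp in wild type ES and 42049 bp in wild type NPCs, a log2 ratio of 1.62, while the number of peaks went from 33 to 26 and the mean covered length per peak from 416 to 1617 bp. Covered length was higher in NPCs at 9 of 10 (73.5% of marked genes) and at least 2-fold higher at the same 9 genes (59.5%). All promoters together had a log2 ratio of 1.37, and the whole lists 1.16. The median window was covered to 19.7% in ES and 69.4% in NPCs, against 8.54% and 19.3% over all genes with a peak in the list in question. In PCGF5-depleted cells the total was 13788 bp in ES and 37647 bp in NPCs, with higher coverage in NPCs at 10 of 10 (72.5%) and a log2 ratio of 1.45, against 1.22 over all promoters.

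Wnt1 (chr15:98620288-98624268), the founding vertebrate family member and the ligand of the midbrain-hindbrain boundary, was covered by H3K27me3 over 2304 bp of its 6835 bp window in wild type ES, 2970 bp in PCGF5-depleted ES, 5501 bp in wild type NPCs and 5000 bp in PCGF5-depleted NPCs. In wild type NPCs a single peak of 5344 bp covered 98.7% of the gene, which is 3981 bp long, and 93.0% was covered in PCGF5-depleted NPCs. Its H2AK119ub1 covered 1145 bp, 688 bp, 1764 bp and 627 bp in the same order of lists, so the 2 wild type lists were the higher ones.

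Wnt10b (chr15:98602184-98608581) is read in the opposite direction with its nearest start site 11.7 kb from that of Wnt1. H3K27me3 covered 523 bp and 1667 bp of its window in wild type and PCGF5-depleted ES, then 6728 bp and 5596 bp in NPCs. The wild type log2 ratio of NPCs to ES was 3.69, which among these genes was second to Wnt2. The highest fold of its promoter peaks in wild type NPCs was 10.4, the highest of the 10 genes and at percentile 98.3 of that list. In PCGF5-depleted NPCs it was 5.16, at percentile 81.5 of its own list. The highest fold was higher in PCGF5-depleted NPCs at Wnt1, Wnt2, Wnt3 and Wnt10a and lower at the rest of the ligands. At Wnt10b, H2AK119ub1 covered 1037 bp, 747 bp, 1044 bp and 316 bp.

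Wnt6 and Wnt10a form a second pair on chromosome 1, with 19.6 kb between their starts. At Wnt6 (chr1:74818466-74831893), H3K27me3 covered 930 bp and 1397 bp in wild type and PCGF5-depleted ES, and 3266 bp and 2898 bp in NPCs. Its H2AK119ub1 was listed at 0 in wild type ES, 559 bp in PCGF5-depleted ES, 852 bp in wild type NPCs and 209 bp in PCGF5-depleted NPCs. Wnt10a (chr1:74838090-74850753), which acts in skin, hair and tooth development, had 1570 bp and 540 bp of H3K27me3 in ES and 3663 bp and 2998 bp in NPCs. Its H2AK119ub1 covered 1392 bp, 887 bp, 1257 bp and 729 bp. Along the 12664 bp of the gene, H3K27me3 covered 82.5% in wild type NPCs and 65.9% in PCGF5-depleted NPCs. When peaks less than 1000 bp apart were joined, the stretch that reached the Wnt10a promoter was 17.8 kb long in wild type NPCs and 5.94 kb in PCGF5-depleted NPCs.

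**Figure D2:**
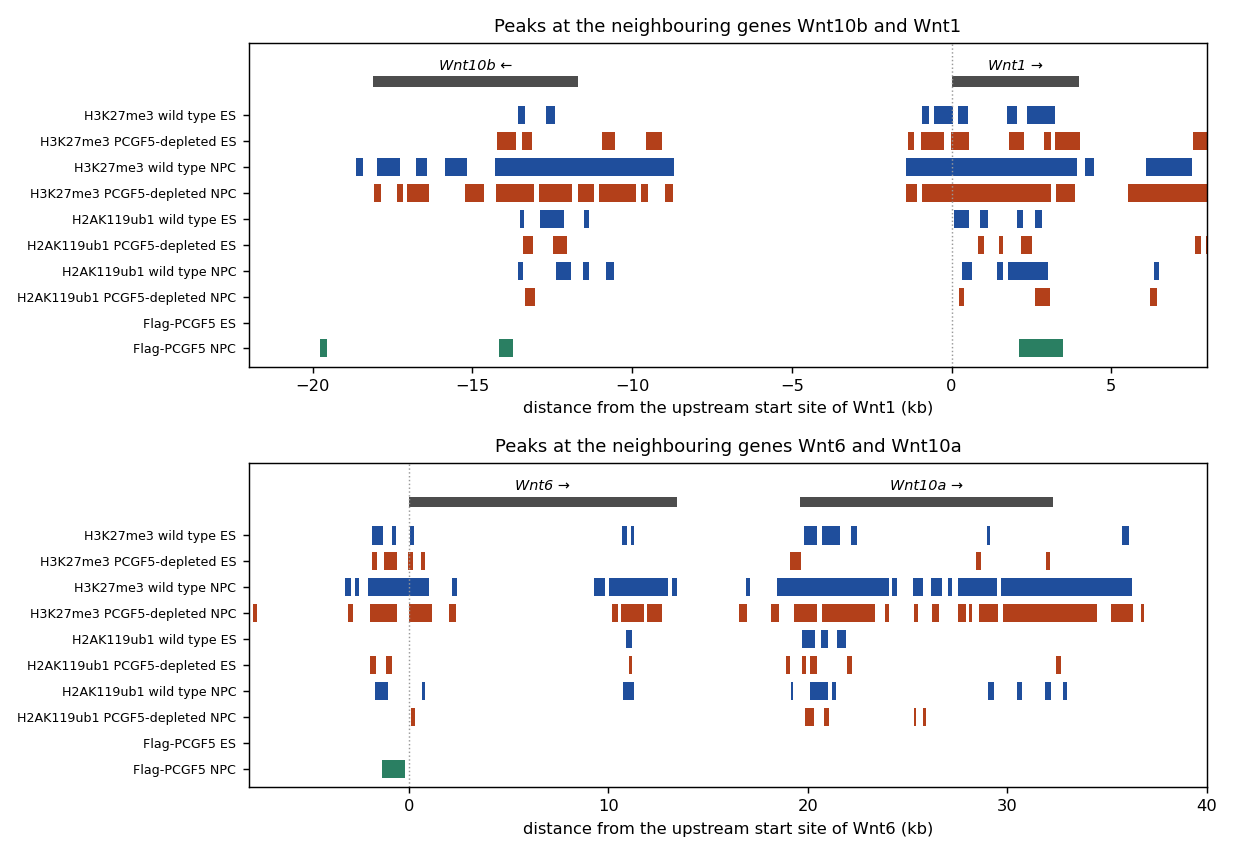
Peaks of the 10 lists (rows) over the Wnt10b and Wnt1 locus and the Wnt6 and Wnt10a locus, against distance in kb from the upstream start site of Wnt1 or Wnt6; blue is wild type, red PCGF5-depleted, green Flag-PCGF5, and grey bars are genes with arrows for their direction. H3K27me3 covers 98.7% of Wnt1 and 82.5% of Wnt10a in wild type NPCs, in wider blocks than in the other lists, and Flag-PCGF5 peaks are seen only in NPCs.

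Wnt3a (chr11:59061535-59104254), a canonical ligand of the primitive streak, had the most completely covered window in wild type NPCs, 86.6%, which placed it 65th of 3480 marked genes. H3K27me3 covered 1038 bp and 1385 bp of it in wild type and PCGF5-depleted ES and 4331 bp and 3445 bp in NPCs. H2AK119ub1 covered 1281 bp, 778 bp, 642 bp and 159 bp.

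Wnt7b (chr15:85365869-85412251), a canonical ligand of brain vasculature and lung development, carried the longest H2AK119ub1 coverage among the 10 in all 4 lists, with 2422 bp and 1995 bp in wild type and PCGF5-depleted ES and 2645 bp and 1521 bp in NPCs. Its window of 8752 bp is longer than most because it joins 3 start sites. As a share of the window, Wnt7b had 30.2% in wild type NPCs, and Wnt10a exceeded it in wild type ES with 27.8% against 27.7%, as did Wnt2b in PCGF5-depleted NPCs with 17.6% against 17.4%. H3K27me3 covered 3344 bp and 3103 bp in ES and 7272 bp and 6653 bp in NPCs.

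Wnt5a (chr14:29317936-29340633), the non-canonical ligand, has 2 start sites with separate windows of 10002 bp in all. It had 1567 bp of H3K27me3 in 6 peaks in wild type ES and 201 bp in 1 peak in PCGF5-depleted ES, a log2 ratio of -2.96, the lowest among the genes with a peak in both ES lists. In NPCs it had 4468 bp in 6 peaks and 3358 bp in 7 peaks. Its H2AK119ub1 was 907 bp in wild type ES and 1517 bp in PCGF5-depleted ES, so in these ES libraries the 2 marks lay in opposite orders. In NPCs H2AK119ub1 was 1075 bp and 463 bp.

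Wnt2 (chr6:17938940-17980585), a ligand of lung and heart development, was the gene with the fewest peaks. It had 152 bp of H3K27me3 in wild type ES, none in PCGF5-depleted ES, 3275 bp in wild type NPCs and 1765 bp in PCGF5-depleted NPCs. Its only H2AK119ub1 peak was the 251 bp shown above, in wild type NPCs, with a fold of 3.81 and a score at percentile 10.0 of its list.

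Wnt2b and Wnt3 were the 2 of 10 genes with more H3K27me3 coverage in PCGF5-depleted than in wild type NPCs (37.4% of marked genes). With a window of 1000 bp around the starts neither was higher, and Wnt3a, Wnt7b and Wnt10a were. Wnt2b (chr3:104747723-104764627), a ligand of the dorsal neural tube and eye, had H3K27me3 over 916 bp and 1012 bp in ES and over 2625 bp in wild type and 3291 bp in PCGF5-depleted NPCs. Its H2AK119ub1 was 1029 bp in wild type ES and 916 bp in PCGF5-depleted ES, listed at 0 in wild type NPCs, and 881 bp in PCGF5-depleted NPCs. Wnt3 (chr11:103635464-103679271), the ligand that sets up the primitive streak, was the 1 gene with less H3K27me3 in wild type NPCs than in wild type ES. Its window had 1378 bp and 1513 bp in ES, 920 bp in wild type NPCs and 2643 bp in PCGF5-depleted NPCs. Its H2AK119ub1 was 1301 bp in wild type ES, 155 bp in PCGF5-depleted ES and listed at 0 in both NPC lists.

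The gene body of Wnt3, 43808 bp long, also had its most H3K27me3 in PCGF5-depleted NPCs. H3K27me3 peaks over it numbered 13 in wild type ES, 8 in PCGF5-depleted ES, 5 in wild type NPCs and 12 in PCGF5-depleted NPCs, and covered 3620 bp, 2478 bp, 2556 bp and 7032 bp. H2AK119ub1 peaks over it numbered 11, 4, 0 and 2. Wild type ES thus had the most H2AK119ub1 over Wnt3, and wild type NPCs had none.

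**Figure D3:**
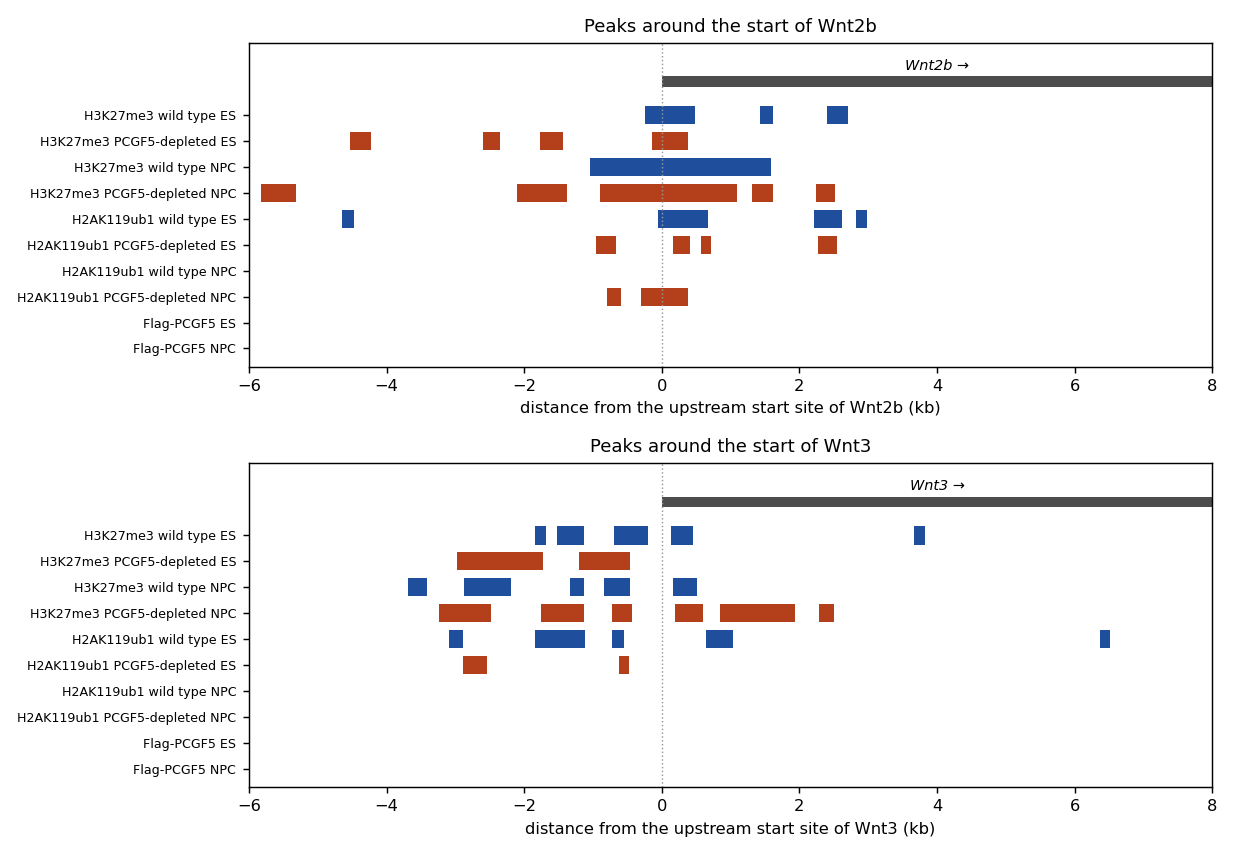
Peaks of the 10 lists (rows) around the upstream start sites of Wnt2b and Wnt3, against distance in kb along the direction of the gene; blue is wild type, red PCGF5-depleted. No H2AK119ub1 peak appears near Wnt2b in wild type NPCs or near Wnt3 in either NPC list, and the H3K27me3 of PCGF5-depleted NPCs extends over 2643 bp of the Wnt3 window against 920 bp in wild type.

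In NPCs the 2 genotypes, which may also differ in differentiation state, differed in how H3K27me3 was divided into peaks. The 10 windows held 26 peaks in wild type and 47 in PCGF5-depleted NPCs, with more peaks at 10 of 10 (47.8% of marked genes). The widest peak was narrower at 9 of 10 (66.4%), all but Wnt3, and covered length was lower at 8 of 10 (62.5%), all but Wnt2b and Wnt3. More peaks with less covered length were found together at those 8, against 17.0% of marked genes. The marked genes include 832 with a peak in wild type NPCs alone and 786 in PCGF5-depleted NPCs alone, where both cannot occur together. All 10 ligands had a peak in both lists, so the 17.0% is not a like comparison. The summed length was lower by 4402 bp in PCGF5-depleted NPCs, as 37647 bp against 42049 bp, a log2 ratio of -0.16, against -0.33 over all promoters. At Wnt10b the widest peak was 5612 bp in wild type and 1212 bp in PCGF5-depleted NPCs, with 4 and 8 peaks. At Wnt3a it was 3634 bp and 1162 bp, with 3 and 6 peaks.

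The whole PCGF5-depleted NPC list was also cut into more and narrower peaks, with 14759 peaks over 8.18 Mb against 11371 peaks over 9.67 Mb in wild type, and its part in the result at the Wnt genes was not tested. With peaks less than 1000 bp apart joined, the 10 windows held 5007 bp more in PCGF5-depleted than in wild type NPCs, a log2 ratio of 0.15 against -0.18 over all promoters, and only 2 of 10 had more peaks. Wnt10a supplied 3991 bp of this difference, because the centre of its joined stretch in wild type NPCs lay outside the window and the gene was counted at 0 there, and without Wnt10a the difference was 1016 bp. With joined peaks counted by any shared base, a setting added after the data were seen, the 10 windows held 49345 bp in wild type and 52615 bp in PCGF5-depleted NPCs, which is 3270 bp more, and Wnt10a had 3663 bp and 3991 bp. With a window of 1000 bp around the starts, 5 of 10 had more peaks, Wnt2b had 2001 bp and 1898 bp, and Wnt3 had 713 bp and 711 bp, so the higher values of these genes lay outside that inner window. Wnt10a had 0 bp in wild type and 1156 bp in PCGF5-depleted NPCs in this setting, since the centre of its wild type peak of 5610 bp was more than 1000 bp from the start.

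**Figure D4:**
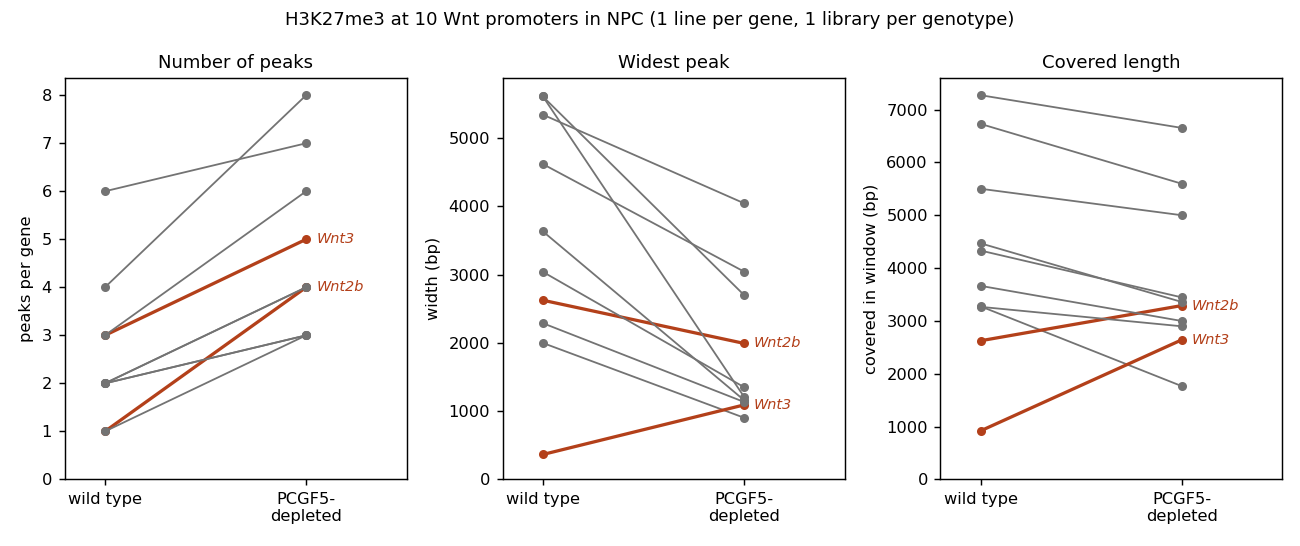
Number of H3K27me3 peaks, width of the widest peak in bp and covered length in bp at the promoter window of each of the 10 genes in wild type and PCGF5-depleted NPCs, with 1 line per gene and 1 library per genotype; red lines are Wnt2b and Wnt3. The number of peaks is higher in PCGF5-depleted NPCs at 10 of 10, the widest peak narrower at 9 of 10 and the covered length lower at 8 of 10.

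H2AK119ub1 was shorter in PCGF5-depleted NPCs at most of the genes. The 10 windows held 9530 bp in 27 peaks in wild type NPCs and 4905 bp in 15 peaks in PCGF5-depleted NPCs, a log2 ratio of -0.96. All promoters together had -0.89 and the whole lists -1.05, so the genes followed the list. Of 9 genes with a peak in either list, 8 were lower (63.2% of marked genes), 6 of them at least 2-fold (51.4%), and Wnt2b was higher (36.8%). Wnt1 had 1764 bp and 627 bp, Wnt6 852 bp and 209 bp, and Wnt3a 642 bp and 159 bp. Of the wild type peaks, 5 of 27 were touched by a peak of PCGF5-depleted NPCs, which is 18.5% against 31.1% of all promoter peaks. In the other direction, 6 of 15 peaks of PCGF5-depleted NPCs were touched by a wild type peak, against 50.2% of all promoter peaks. Fewer peaks in PCGF5-depleted NPCs alone lower the first share, and it does not show that positions differed.

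In ES the H2AK119ub1 sums were 10514 bp in wild type and 8242 bp in PCGF5-depleted ES, a log2 ratio of -0.35 against -0.14 over all promoters, with lower coverage at 7 of 9 (56.0% of marked genes) and at least 2-fold lower at 1 of 9 (43.3%), which was Wnt3. The 43.3% includes genes with a peak in wild type ES alone, 762 of 2086, and 0 of the 9 ligands were of that kind. The difference of -2272 bp between the sums in ES compares with -4625 bp in NPCs, but the order turned with the higher-scoring 50% of each list, at -5216 bp in ES and -2927 bp in NPCs, and with equal numbers of top-scoring peaks, at -3872 bp and -1762 bp. For H3K27me3 the ES sums were 13722 bp and 13788 bp, with 6 of 10 higher (45.5%) and 4 of 10 lower (54.4%) in PCGF5-depleted ES. The direction of this difference of 66 bp turned under 3 of the other settings that were tried, with -2153 bp when peaks were joined.

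Between the stages H2AK119ub1 moved differently from H3K27me3. In wild type cells the sum was 10514 bp in ES and 9530 bp in NPCs, higher in NPCs at 6 of 10 (42.7% of marked genes) and lower at 4 of 10 (57.3%). In PCGF5-depleted cells it was 8242 bp in ES and 4905 bp in NPCs, lower at 9 of 9 (64.4%). H2AK119ub1 peaks of the Wnt windows that were touched by H3K27me3 in the same cells made up 21 of 29 in wild type ES (54.2% of all promoter peaks), 11 of 27 in PCGF5-depleted ES (38.0%), 26 of 27 in wild type NPCs (91.3%) and 15 of 15 in PCGF5-depleted NPCs (90.6%). In NPCs, 24 of 26 wild type H3K27me3 peaks were touched by a peak of PCGF5-depleted NPCs, or 92.3% against 61.6% of all promoter peaks. H3K27me3 of PCGF5-depleted NPCs covered a median of 62.3% of the Wnt windows, against 13.9% over all genes with a peak in that list. Since 1 shared bp counted as touching, wide coverage alone raises this share, and it does not show that positions were kept.

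Flag-PCGF5 was listed at 0 of 10 Wnt promoters in ES, in a list that marked 0.787% of all genes, and at 4 of 10 in NPCs (13.7%). The 4 genes were Wnt1, Wnt2, Wnt6 and Wnt10b. Their peaks were 1394 bp, 246 bp, 1173 bp and 451 bp wide with folds of 2.05, 2.02, 2.12 and 1.68, all under the list median of 2.22. Their scores lay between percentiles 6.87 and 42.1 of the list, and 0 of the 4 remained in the higher-scoring 50% of it. All 4 were touched by H3K27me3 of wild type NPCs (16.2% of all Flag-PCGF5 promoter peaks) and 2 of 4 by H2AK119ub1 (3.09%). H3K27me3 marked all 10 Wnt promoters in wild type NPCs, over a median of 69.4% of the window, and 15.7% of all genes. A peak at a Wnt promoter was thus likely to be touched wherever it lay. Over gene bodies, Flag-PCGF5 peaks of ES touched 0 of 10 (1.39% of all genes) and those of NPCs 6 of 10 (21.0% of all genes), which added Wnt3, Wnt3a and Wnt7b and left out Wnt6, whose peak lay upstream. The Wnt3a peak at chr11:59069319-59070310 had a fold of 3.27 and a score at percentile 88.4, and its centre lay 34440 bp from the start, over coding exon and intron. Wnt2b and Wnt3 had no Flag-PCGF5 peak at the promoter.

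The base composition around the upstream start was compared with all genes over 1001 bp. The 10 promoters held between 37 (Wnt10a) and 93 (Wnt7b) CG dinucleotides, with a median of 61, against 41 over all protein-coding genes, 60 over genes with an H3K27me3 promoter peak in wild type NPCs and 81 over 9 other Wnt ligand genes. At least 1 CG was found in 99.8% of all such promoters. The ratio of observed to expected CG had a median of 0.64 at the 10 genes and 0.67 at the H3K27me3-marked genes, so in this measure they resembled other marked promoters. Wnt10a had the lowest ratio, 0.39, and was covered by H3K27me3 over 73.2% of its window in wild type NPCs. Its marked stretch shared by 7 histone lists lay just beyond the 500 bp counted on that side of the start. That stretch held 17 CG in 178 bp, so the ratio does not describe the marked sequence of this gene.

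For 8 of the genes, the protein-coding gene with the most similar 8 promoter lengths in the histone lists is given, as the smallest root mean square difference of log2(bp + 100). The nearest gene to Wnt10b was Wnt3a, with a difference of 0.57. Wnt1 was nearest to Sp9 (0.52), Wnt6 to Sp8 (0.39) and Wnt5a to Vax2 (0.42), all of which encode transcription factors of development. Wnt2b was nearest to Grin2c (0.39), Wnt3 to Mfhas1 (0.52), Wnt3a to Duoxa2 (0.37) and Wnt2 to A330008L17Rik (0.18).

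Elsewhere in the pathway, the number of marked genes differed between classes. Among 9 other Wnt ligands, H3K27me3 marked 6 in wild type ES, 7 in PCGF5-depleted ES, 7 in wild type NPCs and 8 in PCGF5-depleted NPCs, and H2AK119ub1 marked 4, 6, 4 and 2. Of 15 receptor genes (Frizzled, LRP and ROR), H3K27me3 marked 7, 8, 6 and 9, and of 15 secreted modulators (such as the Sfrp, Dkk and Rspo families) it marked 8, 8, 11 and 11. Of 10 nuclear factors and feedback targets it marked 5, 5, 4 and 5. None of the 10 intracellular transducers, which carry the signal from receptor to nucleus, had a promoter peak of either mark in any of the 8 histone lists. In the same order of lists, H3K27me3 marked 13.4%, 12.9%, 15.7% and 15.4% of all genes, and H2AK119ub1 6.69%, 5.96%, 4.98% and 4.17%. A count of 0 among 10 genes is near these shares, and no difference between classes was tested.

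In the pathway outside the 10 ligands, 37 of 59 genes had H3K27me3 in 1 or both NPC lists, against 4266 of all 22232 genes. Of the 37, coverage in PCGF5-depleted NPCs was lower at 18 (62.5% of marked genes) and higher at 19 (37.4%). The largest losses of H3K27me3 coverage were at Notum, a Wnt deacylase, with 3646 bp and 1779 bp, at the receptor gene Fzd5, with 1738 bp and a listed 0, and at Wnt9b, with 3530 bp and 1872 bp. The largest gains were at Fzd3, from a listed 0 to 2051 bp, at Wnt5b, from 919 to 2461 bp, and at Fzd10, from a listed 0 to 1048 bp. For H2AK119ub1 the largest losses were at Wnt9b, from 1237 bp to a listed 0, at Sp5, a direct target of β-catenin signalling, from 1417 to 415 bp, and at Wnt7a, from 689 bp to a listed 0. The largest gains were at Rspo1, from 377 to 1110 bp, at Sfrp1, from a listed 0 to 621 bp, and at Wnt5b, from a listed 0 to 381 bp. Flag-PCGF5 was at 13 of these 59 promoters in NPCs (13.7% of all genes). Its longest coverage was at Axin2, a feedback inhibitor of the pathway, where 2 peaks covered 3335 bp. The others were Wnt5b, Wnt11, Fzd2, Sfrp1, Sfrp2, Dkk4, Rspo3, Dvl2, Gsk3a, Lef1, Tcf7l1 and Znrf3.

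**Figure D5:**
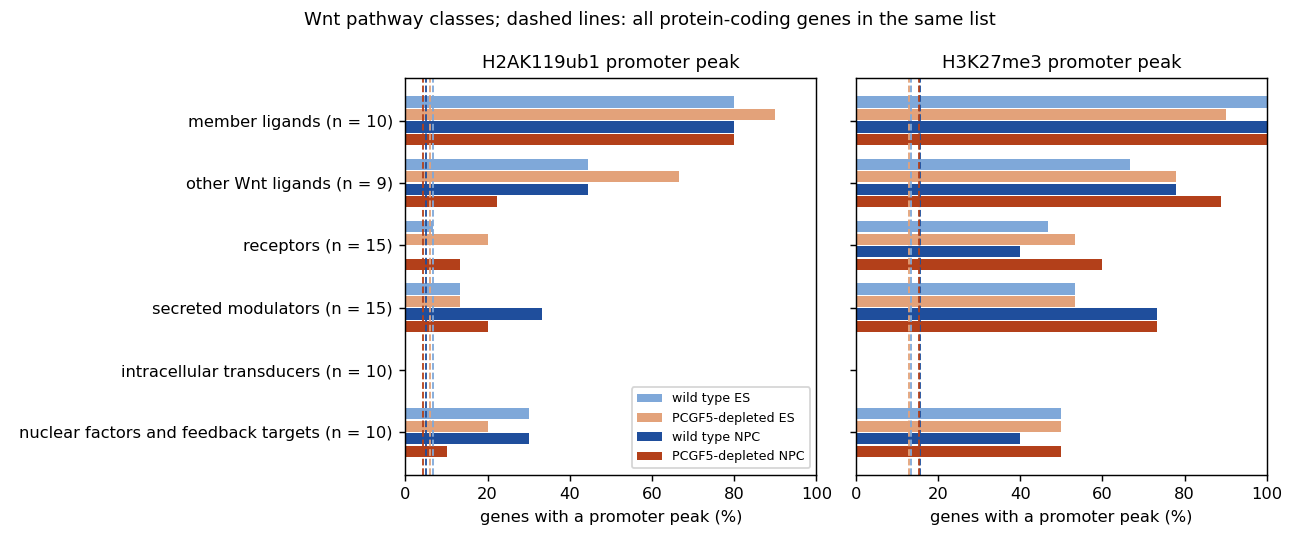
Percent of genes with a promoter peak (horizontal axis) in 6 classes of Wnt pathway genes (vertical axis, with the number of genes), for H2AK119ub1 and H3K27me3 in 4 lists each; dashed lines give the percent of all protein-coding genes in the same list. The 10 ligands have the longest bars in every list, between 80.0% and 100%, and the intracellular transducers are at 0 in all 8 lists. The 10 ligands and the classes were chosen with earlier results of these data known, so the rank of the ligands is not independent of the data.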

How the data were processed

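ChIP-seq peak lists of 10 libraries, 1 per group, were used; the 6 inputs were not. The authors trimmed reads with Trimmomatic, aligned them to mm9 with Bowtie2, took out duplicate reads with Picard and called peaks per library, without pooling, with MACS2 2.1.0 (version per the submitters' processing notes). Chromatin for histone marks was digested with MNase, and that for Flag was crosslinked and sonicated, which changes peak widths. A Drosophila spike-in of the histone ChIP does not enter the peak lists. The deposited lists give a score, a fold enrichment (ratio over background), and p- and q-values as −log10 per peak, each as the authors' caller wrote them. The score is 10 times −log10 p in histone lists and 10 times −log10 q in Flag lists, and was used for ranks within a list. List length depends on depth, which is unknown.

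Peaks were placed on GENCODE M1 (NCBIM37). A promoter peak had its centre within 2500 bp of a protein-coding start, covered length was clipped to the window, and a gene body peak touched the gene by 1 bp. Log2 ratios are of summed lengths without a pseudocount. Scripts used Python 3.11.15 with pandas 2.3.3 and numpy 2.4.6. Values of the 10 genes were checked with bedtools 2.31.1 and 0 of 100 differed. All groups came from the labels. With 1 library per group no test was made, and members are not replicates. Named outside the 10 ligands were cell type markers, up to 3 pathway genes per direction and mark with the largest difference in NPCs, those with a Flag-PCGF5 promoter peak, and the ligands' nearest genes, of which those of Wnt7b and Wnt10a are not reported here. The ligands and gene lists were chosen with earlier results of these data known. Alternatives were any base of a peak within 2500 bp, a window of 1000 bp, the higher-scoring 50% of each list, equal numbers of top-scoring peaks per mark and joining of peaks within 1000 bp. Joined peaks were also counted by any shared base and without Wnt10a, which was chosen after seeing the data.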

Additional observations from a re-analysis of the deposited data

Results flagged for a closer look

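Differences between PCGF5-depleted and wild type cells that lay in opposite directions in NPCs and in ES are given here as covered length in the promoter window. None of these contrasts between stages was tested, since each group was 1 library. For H3K27me3 over the 10 ligands together, PCGF5-depleted minus wild type was -4402 bp in NPCs and 66 bp in ES. The 66 bp compares with 13722 bp in wild type ES. Both differences were negative with a window of 1000 bp, at -1149 and -2424 bp. They were also both negative with the higher-scoring 50% of each list, at -6597 and -2890 bp. With peaks joined both signs turned, to 5007 and -2153 bp. For single genes the H3K27me3 differences were -501 bp in NPCs and 666 bp in ES at Wnt1, -886 and 347 bp at Wnt3a, -368 and 467 bp at Wnt6, and -1132 and 1144 bp at Wnt10b. For H2AK119ub1 they were 881 bp in NPCs and -113 bp in ES at Wnt2b, -612 and 610 bp at Wnt5a, and -643 and 559 bp at Wnt6.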

How the results depend on the processing

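No paired analysis was possible because each group had 1 library, and for the same reason no replicate could be left out. Neither an interval nor a floor for counting error could be given without read totals, a peak missing from a list may have lain under its threshold, and 4 member promoter peaks of H2AK119ub1 in wild type NPCs and H3K27me3 in ES had a q-value above 0.05. The cause of the shifts below was not tested. Joining peaks within 1000 bp gave 18399, 15001 and 15633 bp of H2AK119ub1 in wild type ES, PCGF5-depleted ES and wild type NPCs, and 23276 and 21123 bp of H3K27me3 in wild type and PCGF5-depleted ES. It turned the H3K27me3 differences between genotypes to 5007 bp in NPCs and -2153 bp in ES (1016 and -352 bp without Wnt10a, whose joined wild type NPC stretch had its centre outside the window), moved the H2AK119ub1 difference to -8622 bp in NPCs and that of wild type NPCs from ES to -2766 bp, and left 5 genes with lower H3K27me3 and 2 with more peaks of either mark in PCGF5-depleted NPCs. With joined peaks counted by any shared base, chosen after seeing the data, the genotype differences were 3270 bp (NPCs) and -2153 bp (ES) for H3K27me3, and -8622 and -3691 bp for H2AK119ub1. A window of 1000 bp gave 5975 bp of H2AK119ub1 in wild type NPCs, 7250, 19845 and 18696 bp of H3K27me3 in PCGF5-depleted ES, wild type NPCs and PCGF5-depleted NPCs, and 1802 bp of Flag-PCGF5. The genotype differences became -2069 bp (H2AK119ub1, NPCs), -1149 bp (H3K27me3, NPCs) and -2424 bp (H3K27me3, ES), the wild type stage difference of H3K27me3 10171 bp, and 5 genes had more H3K27me3 peaks. With the higher-scoring 50% of each list, H2AK119ub1 was 3016, 6059 and 3132 bp in PCGF5-depleted ES, wild type NPCs and PCGF5-depleted NPCs, and H3K27me3 8645 bp in PCGF5-depleted ES. The genotype differences were -5216 bp (ES) and -2927 bp (NPCs) for H2AK119ub1 and -2890 bp for H3K27me3 in ES, and the H2AK119ub1 stage difference was -2173 bp. H3K27me3 then touched 5 gene bodies in PCGF5-depleted ES, Flag-PCGF5 touched 0 promoters, with 0 bp, and 1 gene body, and H2AK119ub1 had more peaks at 2 genes in PCGF5-depleted NPCs and was higher in wild type NPCs than ES at 2. With equal numbers of top-scoring peaks, H2AK119ub1 was 4064 bp in PCGF5-depleted ES, its genotype differences were -3872 bp (ES) and -1762 bp (NPCs), those of H3K27me3 were 789 bp (ES) and -7802 bp (NPCs), Flag-PCGF5 touched 0 promoters, with 0 bp, and 0 gene bodies, 6 genes had more H3K27me3 peaks, and the same 2 counts of H2AK119ub1 were 2 and 2. Counting any base within 2500 bp gave 29 bp for the H3K27me3 genotype difference in ES. The summed H3K27me3 of wild type cells was higher in NPCs than in ES under each of the other 5 alternatives.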

Other observations

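Wnt2b and Wnt3 were both the 2 ligands without an H2AK119ub1 promoter peak in wild type NPCs and the 2 ligands whose H3K27me3 coverage was higher in PCGF5-depleted than in wild type NPCs. Among the 8 ligands with such a peak, coverage was lower in PCGF5-depleted NPCs at 8. The coincidence was also seen when any base within 2500 bp counted, and broke in the other 4 settings. With a window of 1000 bp, the difference was -103 bp for Wnt2b and -2 bp for Wnt3, and 543 bp for Wnt3a, 250 bp for Wnt7b and 1156 bp for Wnt10a, which had such a peak. With peaks joined, Wnt6 was higher by 1147 bp and Wnt10a by 3991 bp, and Wnt3a differed by 0 bp. With the higher-scoring 50% of each list or equal numbers of peaks, Wnt2 also lacked H2AK119ub1 in wild type NPCs, and its H3K27me3 difference was -2002 bp. This coincidence was noticed after the values were seen and has no test. Over all genes with H3K27me3 in 1 or both NPC lists, coverage was lower in PCGF5-depleted NPCs at 836 of 1076 genes with an H2AK119ub1 promoter peak in wild type NPCs (77.7%) and at 1832 of 3190 without one (57.4%), and it was higher at 22.3% and 42.5%. The median H3K27me3 coverage in wild type NPCs was 2672 bp in the first set and 597 bp in the second, and its part in these shares was not tested.

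Wnt9b lies on the other side of Wnt3, with 24.3 kb between the starts, and differed from it in both marks. H2AK119ub1 covered 1237 bp of the Wnt9b window in wild type NPCs, in 4 peaks, and was listed at 0 in PCGF5-depleted NPCs, while Wnt3 was listed at 0 in both. H3K27me3 at Wnt9b covered 3530 bp and 1872 bp, while at Wnt3 it covered 920 bp and 2643 bp, so the 2 neighbours lay in opposite orders between the genotypes.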
